A study of Mus musculus with 4 samples.

Results

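Class I antigen presentation was followed through 48 named genes in dendritic cells grown from bone marrow. The cells came from control mice or from mice with a cre against floxed Rbpj, the transcription factor on which canonical Notch signals converge. The 48 were a list of symbols set by function: 12 genes of class I molecules and their peptide loading, and 36 of the proteasome. All 48 were found on the array through their RefSeq accessions, each was represented by its brightest probe, and all 48 were well above background on all 4 arrays, out of 17974 genes tested. Control cells (RFF) came from Rbpj fl/fl mice without cre, and Rbpj-deficient cells (RFF11) from Rbpj fl/fl mice that also carried CD11c-cre, a recombinase driven by the promoter of a dendritic cell integrin. Both genotypes were C57BL/6, female and 8 weeks old. Marrow was kept for 6 days in 20 ng/mL GM-CSF, the growth factor that turns precursors into dendritic cells, and CD11c+ cells were taken for RNA, pooled from 4 mice a genotype. Each genotype had 2 one-colour arrays. No source used here says that these were separate pools, so p-values measure only the spread between the arrays, which may be technical. No array held cre with intact Rbpj, so the cre and the loss of Rbpj cannot be told apart.

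Class I molecules show peptides from the inside of a cell to CD8+ T cells. The proteasome, a barrel of alpha and beta rings (the core particle) under a regulatory cap, cuts tagged proteins into peptides; the TAP transporter carries these into the endoplasmic reticulum, where tapasin and chaperones load them onto a heavy chain paired with beta-2 microglobulin. Immune cells and cells exposed to interferon-gamma exchange the cutting subunits of the barrel for immune versions, and dendritic cells are known for a high share of this immunoproteasome.

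Levels are log2 values of the signal, with the 75th percentile of its array set to 0, and a change is the mean of the RFF11 arrays minus that of the RFF arrays, with the standard error (SE) or the 95% interval of the limma fit. Some Rbpj signal remained in Rbpj-deficient cells, and its source was not tested. Rbpj read 2.69 and 2.61 in control and 1.37 and 1.43 in Rbpj-deficient cells (-1.25, or 42.1% of the control signal, SE 0.065, limma adjusted p = 0.0278). It lost its call with any 1 array left out (adjusted p from 0.108 to 0.144, change from -1.29 to -1.21), as did nearly every gene: limma called 338 genes with all arrays and 0 or 1 with any 1 of the 4 left out. Between 55.2% and 58.4% of the 43020 spots for genes on an array were well above background. Of 15 dendritic cell markers tested none passed an adjusted p of 0.05 in limma. An unadjusted p under 0.05 was reached by 5, against 24.1% of all genes. The markers had a median change of -0.066, and Cd209a was farthest from 0 (-1.33, limma adjusted p = 0.159). Their summed signal, relative to the 75th percentile, was 1404 and 1359 in control and 1352 and 1252 in Rbpj-deficient cells, and none was below background on all 4 arrays. Of 16 neutrophil granule genes tested, 4 rose, none fell and 12 did not pass, against 1.88% of all genes called in either direction. Both Rbpj-deficient arrays lay above both control arrays for 13 of the 16, against 26.8% of all genes, while Elane (-0.14) and Mmp8 (-0.14) lay below 0. The summed signal of the list was 111 and 114 in control against 180 and 132 in Rbpj-deficient cells. Chil3, the brightest gene of the list, weighs most in this sum. It read 5.42 and 5.543 in control and 6.402 and 5.415 in Rbpj-deficient cells, with overlapping groups. Retnlg, Mmp9 and Fcnb were below background on all 4 arrays. Their part in the values that follow was not tested.

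None of the 48 genes passed the limma threshold of 0.05, adjusted over all genes tested, of which 1.88% passed. An unadjusted p under 0.05 was reached by 8 of the 48 (16.7%), against 24.1% of all genes. The smallest adjusted p was 0.0896, for Tap2. Of 14 other settings, 11 called none of the 48, normexp background correction called 1 (Tap2) and the 2 variance priors that follow the signal called 2 (Tap2 and Psmb9). The changes were small: the lowest was -0.30 (B2m) and the highest 0.30 (Tap2). Within 0.2 of 0 lay 42 of the 48 (87.5%), against 69.1% of all genes. The median SE was 0.060 for the 48 and 0.073 for all genes. Among all genes the smallest change called was 0.46, and 0 of the 14582 genes with a change up to that of B2m passed. The lack of a call therefore does not show that changes of this size are absent. The 95% interval lay within 0.5 of 0, a 1.41-fold difference, for 46 of the 48, against 72.1% of all genes; the exceptions were H2-D1 and B2m, whose intervals reached -0.58 and -0.55. In RNA of a cell population, fewer cells of a type and less RNA per cell cannot be told apart.

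**Figure D1:**
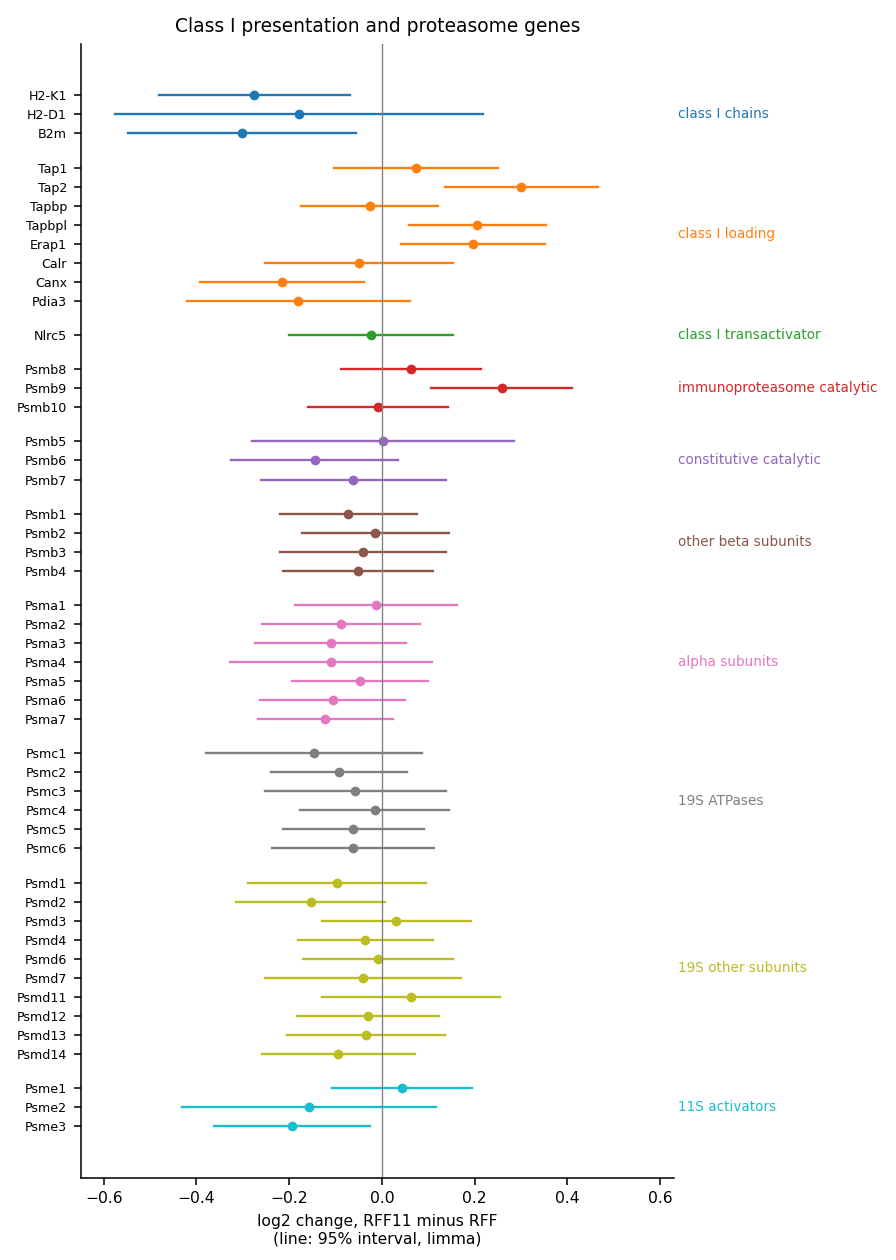
Log2 change of the 48 genes, Rbpj-deficient minus control cells (x axis, points, means of 2 arrays a genotype), with the 95% interval of the limma fit (lines), grouped by role. The points run from -0.30 at B2m to 0.30 at Tap2, and 46 of 48 intervals stay within 0.5 of 0.

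The 3 class I chains read lower in Rbpj-deficient cells without passing. H2-K1, a classical heavy chain, gave 6.17 and 6.24 in control and 5.99 and 5.86 in Rbpj-deficient cells, a change of -0.28 (SE 0.074, limma adjusted p = 0.141). Its second probe changed by -0.30. The groups did not overlap for either probe. B2m, the light chain shared by class I molecules, read 7.12 and 7.17 in control and 6.95 and 6.75 in Rbpj-deficient cells (-0.30, SE 0.089, adjusted p = 0.160), or 81.1% of the control signal. The groups did not overlap, and B2m stood at -0.40 without the first Rbpj-deficient array and -0.20 without the second. H2-D1, the other classical heavy chain here, read 6.21 and 6.55 in control and 6.29 and 6.11 in Rbpj-deficient cells (-0.18, SE 0.14). Its groups overlapped, and its control arrays stood farther apart than the group means. It stood at -0.35 without the first control array and at -0.011 without the second. Heavy chains are close copies of each other, and probe sequences were not available for this work, so signal shared between them cannot be separated.

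The 8 genes of peptide loading went both ways, with a median change of 0.024, and none passed. Tap2, a chain of the peptide transporter, read 4.37 and 4.41 in control and 4.73 and 4.66 in Rbpj-deficient cells, a change of 0.30 or 1.23-fold (SE 0.060, 95% interval 0.14 to 0.47, limma adjusted p = 0.0896). Both Rbpj-deficient arrays lay above both control arrays. Tap2 passed with a variance prior that follows the signal (adjusted p = 0.0288) and with normexp background correction (0.35, adjusted p = 0.0461). Its partner chain Tap1 read 0.56 and 0.64 in control and 0.64 and 0.70 in Rbpj-deficient cells (0.074, adjusted p = 0.523), so the arrays of the genotypes were next to each other.

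Tapbpl (TAPBPR), a tapasin-like editor of bound peptides, read 0.38 and 0.35 in control and 0.57 and 0.58 in Rbpj-deficient cells (0.21, SE 0.054, limma adjusted p = 0.133). Erap1, which trims peptides in the endoplasmic reticulum, read -2.48 and -2.54 in control and -2.31 and -2.31 in Rbpj-deficient cells (0.20, adjusted p = 0.153). For both genes the groups did not overlap. Canx (calnexin), a chaperone of new heavy chains, lay the other way: it read 4.14 and 4.15 in control and 3.98 and 3.88 in Rbpj-deficient cells (-0.21, SE 0.064, adjusted p = 0.160). The disulfide isomerase Pdia3 (ERp57) stood at -0.18 (SE 0.087) with control arrays at 2.93 and 2.73 and Rbpj-deficient arrays at 2.67 and 2.63, and at -0.083 without the first control array. Tapasin itself, Tapbp, was at -0.026 (95% interval -0.17 to 0.12) and calreticulin, Calr, at -0.049 (-0.25 to 0.15). Nlrc5, the transactivator of class I genes, read 0.86 and 0.84 in control and 0.77 and 0.88 in Rbpj-deficient cells (-0.023, 95% interval -0.20 to 0.15), and its dimmer probe stood at 0.12. Tapbp and Calr changed sign under quantile normalisation, and Nlrc5 with normexp.

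**Figure D2:**
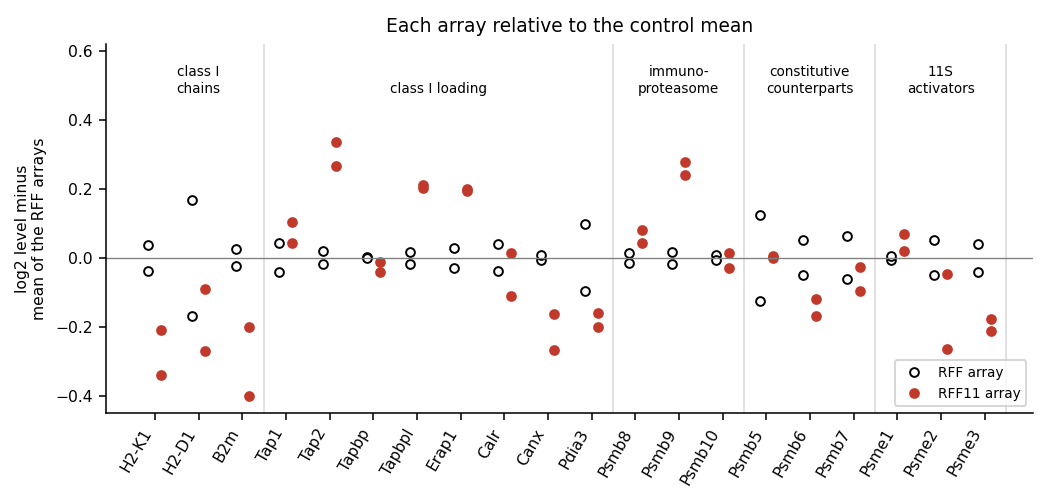
Level on each array minus the mean of the 2 control arrays (y axis, log2) for 20 genes; open circles are RFF arrays and red circles RFF11 arrays. Tap2 and Psmb9 stand highest above their control arrays and B2m and H2-K1 lowest below them, while the red circles of Psmb5 lie between its control arrays.

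The immune cutting subunits were compared with the constitutive subunits whose place they take. Psmb9 (LMP2) read 4.40 and 4.43 in control and 4.65 and 4.69 in Rbpj-deficient cells, a change of 0.26, or 119.6% of the control signal (SE 0.055, 95% interval 0.11 to 0.41, limma adjusted p = 0.0991). The groups did not overlap, and it passed with a variance prior that follows the signal (adjusted p = 0.0346). Its constitutive counterpart Psmb6 lay lower, at 5.72 and 5.62 in control and 5.55 and 5.50 in Rbpj-deficient cells (-0.15, SE 0.066, adjusted p = 0.275), and stood at -0.094 without the first control array. The difference between these changes was 0.40, and the Psmb9 signal relative to Psmb6 was 0.36 and 0.45 above its control mean on the Rbpj-deficient arrays, against -0.068 and 0.068 on the control arrays.

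Psmb8 (LMP7) read 4.99 and 5.02 in control and 5.04 and 5.08 in Rbpj-deficient cells (0.063, 95% interval -0.089 to 0.21). Its counterpart Psmb5 read 6.01 and 6.26 in control and 6.13 and 6.14 in Rbpj-deficient cells (0.0024, -0.28 to 0.29), and the Rbpj-deficient arrays lay between the control arrays. The second Psmb5 probe stood at -0.042. Psmb10 (MECL-1) read 5.52 and 5.51 in control and 5.53 and 5.48 in Rbpj-deficient cells (-0.0083, -0.16 to 0.14), and its counterpart Psmb7 stood at -0.061 (-0.26 to 0.14). The changes differed by 0.060 for Psmb8 and Psmb5 and by 0.053 for Psmb10 and Psmb7, less than the SD between arrays of a genotype (up to 0.16 and 0.080). A two-sided exact permutation test of the 3 differences gave p = 0.333 for Psmb9 and Psmb6, 1 for Psmb8 and Psmb5 and 0.667 for Psmb10 and Psmb7, all at 1 after Benjamini-Hochberg adjustment over the 3 pairs. With 2 arrays against 2 the smallest p possible is 0.333.

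Psmb9, Tap1, Psmb8 and Tap2 follow one another, in this order, on chromosome 17 within the class II region of the major histocompatibility complex, between H2-DMb1 and H2-Ob. All 4 had both Rbpj-deficient arrays above both control arrays, a state reached by 7 of the 48 genes (14.6%) and by 26.8% of all genes tested. The margin was slight for the inner genes. For Tap1 the lower Rbpj-deficient array read 0.6421 against 0.6409 on the higher control array, and for Psmb8 5.045 against 5.016. The outer pair, Psmb9 (0.26) and Tap2 (0.30), had larger changes than the inner pair, Tap1 (0.074) and Psmb8 (0.063). The difference between the pairs was not tested. Of the flanking genes of class II peptide loading, H2-Ob, next to Tap2, rose by 0.70 (SE 0.063, limma adjusted p = 0.0379), while H2-DMb1, next to Psmb9, stood at -0.045. Beyond H2-DMb1, H2-DMb2 stood at 0.18 without overlap (limma adjusted p = 0.237) and H2-DMa at 0.046 with overlap.

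**Figure D3:**
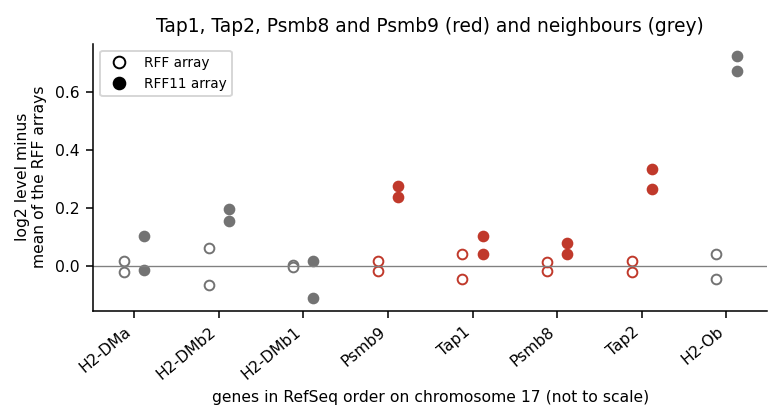
Level on each array minus the mean of the 2 control arrays (y axis, log2) for 8 neighbouring genes on chromosome 17 in their RefSeq order (x axis, not to scale); open circles are RFF arrays, filled circles RFF11 arrays, and red marks the class I and proteasome genes. The red genes at the ends of the run, Psmb9 and Tap2, stand 0.24 to 0.34 above the control mean, and the middle genes 0.044 to 0.10.

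Psmb9 and Tap1 are read in opposite directions from starts with 225 bases between them, so their upstream stretches are the same DNA. It is shown because the genes it lies between differed in the size of the measured change, a difference that was not tested. The sequence, from RefSeq on GRCm38.p6, is chr17:34187331-34187555 on the plus strand, from just after the Psmb9 start (left) to just before the Tap1 start (right), with capitals for matches to the motifs that were searched:
Psmb9 to Tap1: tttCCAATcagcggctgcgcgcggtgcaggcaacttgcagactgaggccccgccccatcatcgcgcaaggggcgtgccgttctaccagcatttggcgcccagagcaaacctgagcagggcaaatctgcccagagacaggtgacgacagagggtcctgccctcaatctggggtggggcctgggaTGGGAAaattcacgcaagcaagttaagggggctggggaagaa

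Motifs were searched on both strands as GAAANNGAA (interferon response type), TTCNNNGAA (GAS type, bound by STAT factors), TGACNNNGC (antioxidant response type), TGGGAA (core of the RBPJ site), CCAAT (bound by NF-Y) and TGACGTCA (CRE). The shared stretch held CCAAT 4 bases from the Psmb9 start and 218 from the Tap1 start, and TGGGAA 184 bases from the Psmb9 start and 37 from the Tap1 start. The upstream bases of B2m and H2-K1, the lowest of the 48 with a promoter in the table, and of Psmb8 are given in the direction of the gene, ending just before its start, with the same use of capitals. B2m lies at chr2:122147437-122147686 on the plus strand, H2-K1 at chr17:34000348-34000597 on the minus strand and Psmb8 at chr17:34197945-34198194 on the plus strand:
B2m: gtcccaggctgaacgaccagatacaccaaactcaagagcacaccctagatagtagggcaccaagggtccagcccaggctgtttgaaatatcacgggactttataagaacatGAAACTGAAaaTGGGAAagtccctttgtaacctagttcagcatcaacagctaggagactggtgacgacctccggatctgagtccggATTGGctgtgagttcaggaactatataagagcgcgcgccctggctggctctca
H2-K1: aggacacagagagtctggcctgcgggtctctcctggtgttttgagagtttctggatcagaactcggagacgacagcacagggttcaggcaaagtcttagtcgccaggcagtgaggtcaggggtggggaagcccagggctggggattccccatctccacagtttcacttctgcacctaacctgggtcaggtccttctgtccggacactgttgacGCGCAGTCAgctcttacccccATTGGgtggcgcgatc
Psmb8: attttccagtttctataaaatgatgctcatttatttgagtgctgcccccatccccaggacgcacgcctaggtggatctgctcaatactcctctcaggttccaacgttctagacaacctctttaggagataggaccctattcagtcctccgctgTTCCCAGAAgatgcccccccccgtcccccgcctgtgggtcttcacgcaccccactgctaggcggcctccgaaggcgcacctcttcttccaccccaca

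In B2m the matches were GAAACTGAA, TGGGAA and, on the other strand, CCAAT. In H2-K1 they were TGACNNNGC and CCAAT, both on the other strand. In Psmb8 a single run matched both TTCNNNGAA and, on the other strand within it, TGGGAA. Promoters of 300 bases, from 250 before to 50 after the start, were found in the RefSeq table for 39 of the 48 genes, and Tap2 was among those without one. TGGGAA lay in 10 of 14 promoters of class I genes, immune subunits, Psme1 and Psme2 (71.4%), in 4 of 24 of the other core and cap genes (16.7%) and in 25.5% of all 27025 promoters, 1 a gene. Psmb9 and Tap1 share the match in that count. The 10 were B2m, Tap1, Tapbp, Calr, Canx, Pdia3, Psmb8, Psmb9, Psmb10 and Psme1. Their changes lay on both sides of 0, from -0.30 (B2m) to 0.26 (Psmb9), and none passed in limma. CCAAT lay in 9 of the 14 (64.3%), 10 of the 24 (41.7%) and 37.9% of all. GAAANNGAA lay in 3 of the 14 (B2m, Erap1 and Psme1), 3 of the 24 (Psmb3, Psmb4 and Psmd4) and 8.57% of all. TGACNNNGC lay in 3 of the 14, 4 of the 24 and 12.5% of all, TTCNNNGAA in 1 of each set and 8.47% of all, and TGACGTCA in none and 1.88%. A match of letters is a description and not evidence of binding. Only these letters were searched, so the lack of a match does not show that a site is absent.

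The remaining core and cap genes, those of the barrel and its regulatory cap without the immune subunits, lay slightly lower as a group as scaled here. With quantile normalisation 15 of 30 lay below 0. Of these 30, none passed in limma and none had an unadjusted p under 0.05, against 24.1% of all genes. Below 0 lay 27, against 52.7% of all genes. Both Rbpj-deficient arrays lay above both control arrays for none, against 26.8% of all genes, and below them for 18, against 32.3%. Over all 48 genes the last count was 24 (50%), against 32.3% of all genes. The median of the 30 was -0.059, with a range from -0.15 (Psmd2) to 0.063 (Psmd11), while the median over all genes was -0.010. Without the first Rbpj-deficient array the median of the 30 was -0.037, with 20 of 30 below 0, and over all 48 genes it was -0.030, with 29 below 0. Without the second, the medians were -0.087 and -0.080.

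All 7 alpha subunits, which form the outer rings of the barrel and its gate, lay below 0, with a median of -0.11. For 6 of the 7 both Rbpj-deficient arrays lay below both control arrays, against 32.3% of all genes. Psma7 was the lowest, at 4.98 and 4.99 in control and 4.85 and 4.87 in Rbpj-deficient cells (-0.12, SE 0.053, limma adjusted p = 0.260). Psma1 was the highest, at 4.04 and 3.94 in control and 3.97 and 3.99 in Rbpj-deficient cells (-0.012). Its groups overlapped, and the other 5 ran from -0.11 to -0.047.

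The 4 beta subunits that do not cut ran from -0.073 (Psmb1) to -0.014 (Psmb2). Psmb1 read 4.08 and 4.08 in control and 4.03 and 3.99 in Rbpj-deficient cells, and Psmb2 1.61 and 1.64 against 1.58 and 1.64. For 2 of the 4 both Rbpj-deficient arrays lay below both control arrays, against 32.3% of all genes. The 6 ATPases of the cap, which unfold substrates and push them into the barrel, had a median of -0.062. Psmc1 was lowest, at 4.76 and 4.68 in control and 4.48 and 4.65 in Rbpj-deficient cells (-0.15, SE 0.084, limma adjusted p = 0.359), and its second probe stood at -0.058. Psmc1 was at -0.061 without the first Rbpj-deficient array and at -0.23 without the second. Psmc4 was nearest to 0, at 3.19 and 3.14 in control and 3.13 and 3.17 in Rbpj-deficient cells (-0.016), and the other 4 ran from -0.092 to -0.057.

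Among the 10 cap subunits that are not ATPases the median was -0.035. Psmd2, a scaffold of the cap base, was lowest, at 3.69 and 3.61 in control and 3.50 and 3.50 in Rbpj-deficient cells (-0.15, SE 0.058, limma adjusted p = 0.222), with no overlap. Psmd11 was highest, at 1.36 and 1.46 in control and 1.42 and 1.51 in Rbpj-deficient cells (0.063, adjusted p = 0.624). The other 8, among them a ubiquitin receptor and the deubiquitinase that frees substrates of their tags, ran from -0.097 to 0.031. For 5 of the 10 both Rbpj-deficient arrays lay below both control arrays, against 32.3% of all genes.

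The median change over all genes differed by brightness, and the position of these genes below 0 moved with the scaling. Whether brightness accounts for that position was not tested. The 48 genes were bright, with a median level of 4.01 against -0.40 for all genes. Across all genes the median change was 0.038 in 6309 genes at or below a level of -2, -0.071 in 1192 genes between 4 and 6 and -0.058 in 696 genes above 6. Above a level of 2 the median was -0.051 over 4606 genes of all kinds and -0.059 over the 38 members there. With quantile normalisation, which equalises the distributions of the arrays, the median of the 30 core and cap genes was 0.000013, with 15 of 30 below 0, and with median scaling it was -0.090. Over all 48 genes the median was -0.050 as scaled here, 0.00072 with quantile normalisation (23 of 48 below 0) and -0.082 with median scaling (40 of 48).

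**Figure D4:**
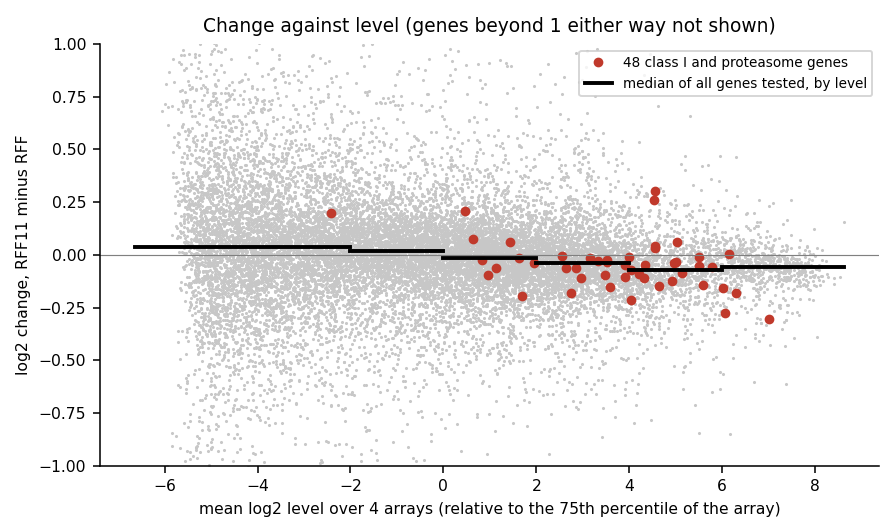
Log2 change, Rbpj-deficient minus control (y axis), against the mean log2 level over the 4 arrays (x axis) for all genes tested (grey) and the 48 class I and proteasome genes (red); black lines are medians of all genes in 6 ranges of level. The black lines step from 0.038 at the dim end to -0.071 between levels 4 and 6; genes that changed by more than 1 are not drawn.

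The activators that open the barrel without the cap lay on both sides of 0, and none passed. Psme1, one chain of the interferon-induced PA28 activator, read 4.52 and 4.54 in control and 4.55 and 4.60 in Rbpj-deficient cells (0.043, 95% interval -0.11 to 0.19). Psme2, the other chain, read 6.05 and 6.15 in control and 6.05 and 5.83 in Rbpj-deficient cells (-0.16, -0.43 to 0.12), with overlapping groups and -0.037 on the second probe. It stood at -0.27 without the first Rbpj-deficient array and at -0.048 without the second. Psme3, the nuclear PA28-gamma, read 1.74 and 1.82 in control and 1.60 and 1.57 in Rbpj-deficient cells (-0.19, SE 0.061, limma adjusted p = 0.172), with no overlap.

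Of the 9 genes with 2 probes, the probes differed by a median of 0.045 and at most 0.14 in the log2 change, and their signs differed only for Nlrc5 and Psmb5, where neither probe changed by more than 0.12.

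Other genes of the pathway, from lists set by function, gave no call in limma either. Of 13 further class I and class I-like genes tested 0 passed and 7 had an unadjusted p under 0.05, against 24.1% of all genes. Their median change was -0.18. Both Rbpj-deficient arrays lay below both control arrays for 8 of the 13, against 32.3% of all genes, and above them for 2, against 26.8%. Probes of similar class I genes may share signal, so these counts may not be of independent genes. The lipid-presenting Cd1d1 was the farthest from 0, at 1.94 and 2.23 in control and 1.41 and 1.49 in Rbpj-deficient cells (-0.64, SE 0.12, adjusted p = 0.0822). Of 16 further proteasome subunits and assembly factors 0 passed and 1 had an unadjusted p under 0.05, with a median of -0.037; Psmd8, a cap subunit, stood lowest at -0.26 (SE 0.057, adjusted p = 0.104).

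Of 27 regulators of these genes 0 passed and 5 had an unadjusted p under 0.05, against 24.1% of all genes (median -0.045). They included interferon receptors, STAT and IRF factors and subunits of NF-Y. Relb, an NF-kappaB subunit, was farthest from 0, at -0.28 (SE 0.075, limma adjusted p = 0.138). Of 21 genes of ubiquitin supply and export from the endoplasmic reticulum 0 passed and 3 had an unadjusted p under 0.05 (median -0.061), with Derl3, a component of that export, farthest at 0.60 (SE 0.12, adjusted p = 0.0858). Of 16 genes of cross-presentation, the route by which taken-up antigen reaches class I molecules, 0 passed and 5 had an unadjusted p under 0.05 (median -0.014). The mannose receptor Mrc1 was farthest, at 4.46 and 4.58 in control and 4.10 and 4.01 in Rbpj-deficient cells (-0.46, SE 0.074, adjusted p = 0.0679).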

How the data were processed

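RNA was measured on 4 one-colour Agilent arrays from 150 ng of labelled RNA each, 2 for each genotype, all on 1 slide, per the labels and file headers. The deposited intensity of each spot came, per the file headers, from Feature Extraction 10.7.1.1, corrected for background and for trends within the array and without scaling across arrays. The authors' deposited table of log2 values, whose making is not given in the sources used here, followed the scanner values with r of 1 after centring each probe on its median, with the same direction in all columns (medians -0.034 to 0.053), and served as an alternative.

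Signal was taken to log2, reduced by the 75th percentile of each array, and averaged over the spots of a probe without outlier spots (127 to 176 an array; 0 were saturated). A probe was kept where 1 genotype or both had it well above background on each array, and the brightest probe stood for its gene. Genotypes were compared with limma 3.58.1 (R 4.3.3), and p-values were adjusted by Benjamini-Hochberg across the 17974 genes tested. One gene, no member, lacked an array in the fit. The procedure was tested on 5 simulated data sets, each with 200 changed genes and independent noise drawn without regard to brightness. It recovered 2.09% of log2 changes of 0.5, 66.6% of changes of 1 and 88.8% of changes of 2. Of the calls 4.21% were false. These shares hold for the simulated setting only. In the data 24.1% of genes had an unadjusted p under 0.05 in limma, and the arrays may be technical replicates. The smallest change simulated, 0.5, was above the largest change of a member (0.30), so a member that did not pass may still have changed. Normexp (offset 50) used the median spot signal, since a mean signal is not in the files. Names came from RefSeq accessions of GRCm38.p6 (26055 of 39429 probes, 12756 of the genes tested); the file headers give mm9 for the array. The scanner files hold no probe sequences.

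The members and lists were chosen with earlier results of these data known. Genes named were Rbpj, all members of the class I, immune, constitutive and activator groups, the highest and lowest of each other group and the gene farthest from 0 in each pathway list. The neighbours on chromosome 17 and the genes listed for a motif were named after their values were seen. Markers of T, B and NK cells (8 tested, Klrb1c rose by 1.14), of monocytes and macrophages (12 tested, Marco rose by 1.29; Fn1, Fcgr1 and Trem2 fell by 1.56, 0.61 and 0.53) and of erythroid and stromal cells (5 tested, 0 passed in limma, 2 at an unadjusted p under 0.05, Itga2b farthest from 0 at 0.82) were also counted. Over all genes tested, 1.88% passed in limma and 24.1% had an unadjusted p under 0.05. Of the neutrophil genes Stfa2l1, Stfa2, Mpo and Ngp rose by 0.90, 0.81, 0.74 and 0.54. Python 3.11.15 with numpy 2.4.6, scipy 1.17.1, pandas 2.3.3 and matplotlib 3.10.9 was used.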

Additional observations from a re-analysis of the deposited data

How the results depend on the processing

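With 2 arrays a genotype, only differences above the spread between arrays could be called, and no outlier check was possible in groups of 2. All arrays shared 1 slide, so the slide as a block was not run. Of 406 results (29 members under 14 alternatives), 378 kept their direction and side of the threshold, 23 changed sign, all with a change of at most 0.073 as reported, and 5 passed. The cause of these differences was not tested.

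Genes called by limma numbered 338 as reported, 886 with normexp, 1482 with a variance trend, 1547 with a robust trend, and 0 without the filter on dim probes (3655 at an unadjusted p under 0.05). The replicate block called 0 genes and 0 members (3677 genes at an unadjusted p under 0.05). Same-numbered arrays did not deviate together (correlation -0.047), so the numbers pair nothing known. With 1 array left out, the count ran from 0 to 1. Members called were 1 with normexp, 2 with a trend and 2 with a robust trend.

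The median of the immune subunits was 0.023 with normexp, 0.13 with quantile normalisation, 0.032 with median scaling and 0.044 to 0.082 with 1 array left out. For the loading genes it was 0.052 (quantile), -0.0073 (median scaling) and 0.0013 to 0.058. For the constitutive counterparts it was -0.015 (quantile), -0.092 (median scaling) and -0.12 to -0.026.

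Signs reversed with normexp for Nlrc5 (0.0041), Psmb10 (0.00032), Psma1 (0.0098) and Psmc4 (0.021). They reversed with quantile normalisation for Tapbp (0.031), Calr (0.029), Psmb10 (0.049), Psmb2 (0.020), Psmb1 (0.0010), Psma1 (0.054) and Psmc4 (0.015). Psmb5 reversed with median scaling (-0.029), and Nlrc5 (0.048) and Psmb5 (-0.020) with the mean of probes. With 1 array left out, Psmb5 ran from -0.12 to 0.13, Psmb7 from -0.12 to 0.00026, Psma1 from -0.061 to 0.038, Psmc4 from -0.043 to 0.012, Calr from -0.11 to 0.012, Nlrc5 from -0.076 to 0.029, Psmb2 from -0.046 to 0.018 and Psmb10 from -0.029 to 0.012.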
